A study of Mus musculus with 4 samples.

Results

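Axon guidance ligands and receptors were followed in mouse embryonic dermal cells sorted by a reporter of Wnt signalling. The genes were taken by name as semaphorins, plexins, neuropilins, Slit and Robo genes, netrins, Unc5 genes and Dcc, ephrins, Eph receptors, Rgma and Rgmb. In all, 69 genes matched and had an OK status in all 4 libraries, of 32411 named gene units with that status and 33855 named units in any table. Of the 69, 36 encode ligands and 33 encode receptors.

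All 4 libraries came from embryos with an Axin2-LacZ reporter, and Axin2 is a gene that canonical Wnt signalling switches on. Dermal cells of ventral foot skin (E17.5) and of dorsal back skin (E14.5) were separated by cell sorting into an Axin2-positive and an Axin2-negative fraction, 1 library each. Libraries are named below by skin and sort label, and paired values are given with the positive library first. The design text asks if Wnt signalling shapes expression in the mesenchyme according to body site. Each group is 1 library, so no difference below has a replicate check, and no p-value is given. Skin site and embryonic stage changed together and cannot be told apart. Whether embryos were pooled is not given in the sources used here.

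Guidance cues were first described as signals that attract or repel growing axons. Secreted semaphorins bind neuropilin and plexin receptors, Slit proteins bind Robo receptors, netrins bind Dcc and Unc5 receptors, and membrane-bound ephrins bind Eph receptor tyrosine kinases on a neighbouring cell. The Rgm proteins bind the netrin receptor neogenin and also act as co-receptors for bone morphogenetic proteins. In skin these molecules are best known for their action on blood vessels and on the nerves that grow through the dermis.

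Levels are in FPKM, which scales read fragments by transcript length and library size, so genes can be compared with each other. Each value has a lower and an upper bound from the authors' software, and these bounds hold no variation between embryos. For members of at least 1 FPKM the median distance from the middle to a bound was 33.2% of the value in the foot positive library, the least precise of the 4, and 10.5% and 11.2% in the back libraries. Log2 ratios were taken as log2((FPKM + 1)/(FPKM + 1)) after dividing each library by a median-ratio factor, and the number after ± combines the bounds of both values. Well above the added 1, a ratio as deposited equals the rescaled ratio plus a shift, which was -0.26 for the foot sort, 0.19 for the back sort, 0.30 for foot against back under the positive label and 0.74 under the negative label. FPKM values are printed as deposited.

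Axin2 itself stood at 9.65 and 12.9 FPKM in the foot positive and foot negative libraries and at 4.49 and 3.13 in the back positive and back negative libraries. Its sort ratio was -0.14 ± 0.45 in the foot, against the label, and 0.27 ± 0.25 in the back. After rescaling its bounds overlapped in both skins. As deposited the back bounds were apart, at 3.89 to 5.09 against 2.63 to 3.64 FPKM. The libraries of both skins are therefore named by their labels. All 8 dermal fibroblast markers were above 1 FPKM in every library, but they were not level. In the foot sort Col1a2 was higher (1.96 ± 0.04) and Col1a1 lower (-1.18 ± 0.06), and in the back sort Pdgfra was higher (1.28 ± 0.10). Foot against back, Col1a2 and Dpt were past 2-fold higher and Col1a1 lower under the positive label. Under the negative label Pdgfra, Col3a1 and Dpt were higher and Twist2 lower. The part of such shifts in the guidance gene ratios was not tested. Of 8 endothelial markers measured, 6 were listed at 0 in both foot libraries and all were above 0 in the back, with sums of 7.94 and 6.57 FPKM in the back positive and back negative libraries. All 3 measured keratinocyte markers were listed at 0 in the foot and stayed below 1 FPKM in the back. Zeros were commoner in foot among the 69 guidance genes too. There 16 and 12 were listed at 0 in the foot positive and negative libraries, against 2 and 4 in the back. The share of all genes listed at 0 was not computed. Summed levels ranged over the libraries from 11.2 to 32.6 FPKM for pericytes and smooth muscle, from 0.768 to 5.18 for skeletal muscle, from 1.65 to 3.17 for cartilage and from 0.279 to 1.44 for melanoblasts. Leukocyte markers summed to between 0.588 and 2.71 FPKM in 3 libraries and were highest in the back negative library, where 3 of 6 were above 1 FPKM. In these bulk samples fewer cells of a type and less RNA per cell cannot be told apart.

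The promoters of 4 genes on which the comparisons below turn are shown as their 250 bases before the start site, 5′ to 3′ on the strand of the gene. Efna1 and Epha7 have 2 promoter entries each, and only the first is shown and described. Sequences and coordinates are RefSeq's on GRCm38.p6, matched by symbol, while the expression tables use mm9. Efna1 and Epha7 were higher in foot, Efna5 was higher in back, and Sema3c was higher under the positive label in back. Efna1 lies at chr3:89280952-89281201 on the minus strand, Efna5 at chr17:62881318-62881567 on the minus strand, Epha7 at chr4:28812881-28813130 on the plus strand and Sema3c at chr5:17574566-17574815 on the plus strand. Capitals mark matches on either strand to the TCF/LEF core CTTTGA, the homeobox core TAATTA or the GC box GGGCGG.
Efna1: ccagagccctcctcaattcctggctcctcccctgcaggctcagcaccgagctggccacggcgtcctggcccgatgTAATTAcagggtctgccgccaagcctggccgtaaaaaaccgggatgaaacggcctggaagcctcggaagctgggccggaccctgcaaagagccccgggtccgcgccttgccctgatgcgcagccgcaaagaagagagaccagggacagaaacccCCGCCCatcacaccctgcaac
Efna5: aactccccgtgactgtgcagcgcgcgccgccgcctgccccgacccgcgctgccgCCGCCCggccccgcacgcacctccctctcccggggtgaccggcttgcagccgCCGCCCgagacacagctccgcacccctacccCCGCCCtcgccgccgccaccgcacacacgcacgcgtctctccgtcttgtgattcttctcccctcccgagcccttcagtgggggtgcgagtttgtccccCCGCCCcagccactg
Epha7: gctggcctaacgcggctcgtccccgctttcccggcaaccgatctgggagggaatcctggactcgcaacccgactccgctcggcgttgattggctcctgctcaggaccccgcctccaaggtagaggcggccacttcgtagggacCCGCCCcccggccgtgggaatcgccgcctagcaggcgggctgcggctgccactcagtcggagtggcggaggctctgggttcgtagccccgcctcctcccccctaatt
Sema3c: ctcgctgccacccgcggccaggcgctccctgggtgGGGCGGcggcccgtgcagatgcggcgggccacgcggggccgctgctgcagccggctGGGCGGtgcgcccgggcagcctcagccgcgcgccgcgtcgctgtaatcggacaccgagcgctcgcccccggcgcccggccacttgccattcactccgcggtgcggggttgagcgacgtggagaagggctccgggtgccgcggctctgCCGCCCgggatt
These 4 windows are rich in G and C, at 64.8%, 74.8%, 69.2% and 78.4% in that order, beside a median of 52.4% over all promoters in the table and of 64.2% over those of the guidance genes. Efna1 held 1 homeobox core, a word found in 4.84% of 32851 promoter windows of this length. GC boxes numbered 1, 4, 1 and 3, and 32.7% of all windows held at least 1, as did 53 of the 76 windows of guidance genes. Counted by gene, 43 of the 58 guidance genes with a promoter entry had such a window. High G and C content and GC boxes are thus shared with most of the set. None of the 4 windows held the letters CTTTGA, which 13.8% of all windows did. Among the 58 members with a promoter entry, CTTTGA lay in the windows of Epha2, Nrp2, Robo4 and Sema3e. Such matches describe letters and not bound sites.

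Most guidance genes were low. At least 5 FPKM was reached in some library by 24 of 69, and in every library by 7, namely Efna5, Efnb1, Ephb4, Plxnb2, Sema3d, Sema5a and Slit3. At least 1 FPKM in every library was reached by 30. The highest gene in the foot was the Slit receptor Robo2, at 18.1 FPKM (bounds 15.2 to 21.4) in the positive and 22.0 (20.6 to 23.5) in the negative library. Its bounds overlapped those of the next gene, the plexin Plxnb2, in both foot libraries. The highest gene in the back was the ephrin Efna5, and its bounds stood clear of those of every other member. The Slit ligand Slit3 came next in the back, at 24.3 FPKM (22.4 to 26.3) in the positive and 17.6 (16.0 to 19.1) in the negative library.

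**Figure D1:**
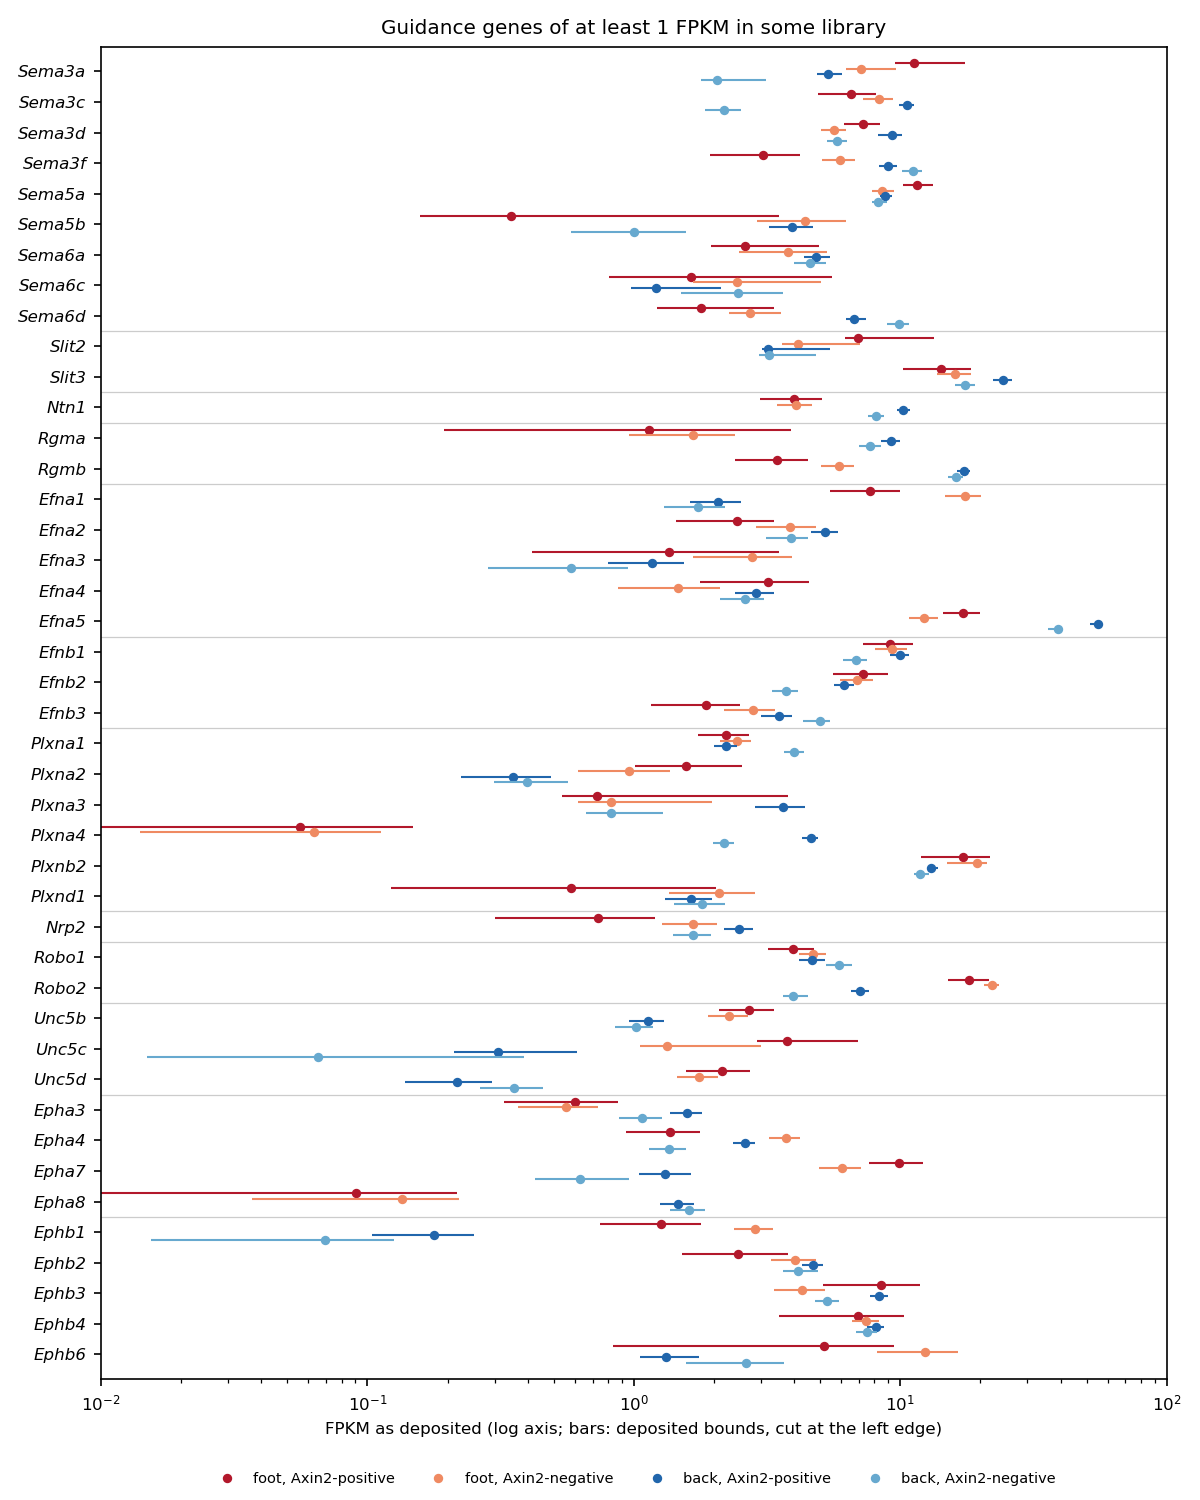
FPKM as deposited on a log axis for the 43 guidance genes that reached 1 FPKM in some library, 1 row per gene and 1 point per library, with bars for the authors' bounds and grey lines between families. Robo2, Efna1, Epha7 and Unc5c sit to the right in the foot libraries, and Efna5, Rgma, Rgmb, Sema6d and Plxna4 in the back libraries.

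Another 26 members stayed below 1 FPKM in all 4 libraries. They were the receptor genes Dcc, Epha1, Epha10, Epha2, Epha5, Epha6, Plxnb1, Plxnb3, Plxnc1, Robo3, Robo4 and Unc5a, and the ligand genes Ntn4, Ntn5, Sema3b, Sema3e, Sema3g, Sema4a, Sema4b, Sema4c, Sema4d, Sema4f, Sema4g, Sema6b, Sema7a and Slit1. All class 4 semaphorins among the 69 genes are in this group. Dcc, the attractive netrin receptor, stood at 0.0441 and 0.119 FPKM in foot and at 0.405 and 0.373 in the back. Epha1 was listed at 0 in all 4 libraries. Robo4, a Robo gene of endothelial cells, was listed at 0 in both foot libraries and stood at 0.346 and 0.328 FPKM in the back. Ntn5, Plxnb3, Sema6b, Slit1 and Unc5a were likewise listed at 0 in both foot libraries and above 0 in both back libraries. The 6 endothelial markers listed at 0 in the foot (Pecam1, Cdh5, Tie1, Cldn5, Emcn and Esam) had the same pattern. Kdr did not, at 0.824 and 0.439 FPKM in foot and 0.431 and 0.477 in back. Tek was above 0 in foot too, at 0.155 and 0.0218 FPKM against 1.19 and 0.273 in back. The part of endothelial cells in the Robo4 values was not tested. Neuropilin 1 could not be counted as a member because the tables join Nrp1 with Mir1903 in 1 unit. That unit stood at 16.8 and 21.5 FPKM in foot and at 28.8 and 19.5 in the back. Ntn3 was joined with Tbc1d24 and stood between 2.34 and 3.16 FPKM.

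Between foot and back, at a minimum of 5 FPKM, most ligands counted as different were lower in foot. The few receptors counted as different at that minimum were higher in foot under both scalings. This did not hold for receptors at a minimum of 1 FPKM, where they went both ways. Epha8, Nrp2, Plxna3 and Plxna4 were then lower in foot under the positive label, and Epha8, Plxna1 and Plxna4 under the negative. Under a pseudocount of 0.1 the receptors Ephb3 and Robo1 were counted as lower in foot under the negative label. The joined Nrp1 unit, a receptor left out of these counts, was also on the back side after rescaling. Its ratios were -1.03 ± 0.35 under the positive label, past 2-fold, and -0.57 ± 0.16 under the negative. As deposited they were -0.75 and 0.14. A gene was counted as higher or lower when its rescaled ratio was at least 2-fold, the larger FPKM of the pair was at least 5 and neither value was listed at 0. Under the positive label 22 members could be counted, of which 3 were higher in foot and 8 lower, where 13.6% and 14% of all 7513 genes counted were higher and lower. Under the negative label 4 of 22 were higher and 7 lower, beside 12.7% and 12.1% of 7547 genes. All but 1 of the 8 higher or lower ligands under the negative label were lower in foot, and all 3 receptors called were higher in foot. Under the positive label 1 ligand was higher and 8 lower, and both receptors called were higher. Only 6 receptors could be counted under the positive label and 7 under the negative, beside 16 and 15 ligands. As deposited, without factors, 4 members were higher and 6 lower under the positive label, with 20.4% and 9.69% for all genes. Under the negative label 6 were then higher and 4 lower, with 37.1% and 4.05% for all genes. The median log2 ratio of the counted members was -0.43 under the positive and -0.66 under the negative label, beside 0.05 and 0.07 for all genes counted. As deposited, the members' medians were -0.16 under the positive and -0.02 under the negative label. On that scale all ratios well above the added 1 are shifted up, by 0.30 and 0.74.

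**Figure D2:**
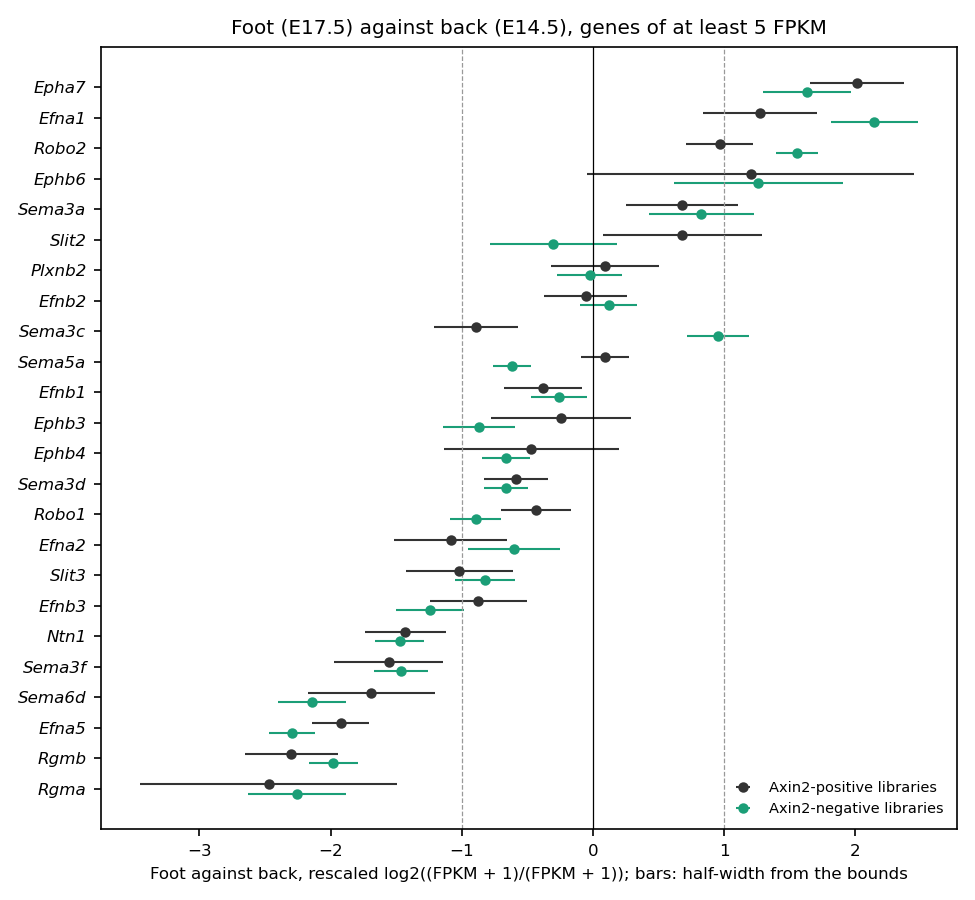
Rescaled log2 ratio of foot (E17.5) against back (E14.5) for the 24 guidance genes of at least 5 FPKM in some library, black for the Axin2-positive and green for the Axin2-negative libraries. Bars are the combined bounds, dashed lines mark 2-fold, and Rgma, Rgmb, Efna5 and Sema6d lie furthest to the back side while Epha7 and Efna1 lie to the foot side.

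The A-class ephrins are ligands held on the membrane by a lipid anchor, and Efna5 and Efna1 differed between the skins in opposite directions. Efna5 stood at 17.2 FPKM (upper bound 19.8) and 12.3 (10.8 to 13.8) in foot. In the back it stood at 55.4 (51.4 to 55.3, a value above its own bounds) and 39.0 (35.7 to 39.5). Both foot values lay below both back values, with log2 ratios of -1.92 ± 0.22 and -2.29 ± 0.18 under the positive and negative labels.

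Efna1 went the other way. It stood at 7.71 FPKM (5.46 to 9.95) and 17.4 (14.7 to 20.2) in foot, and at 2.07 (1.62 to 2.52) and 1.74 (1.30 to 2.19) in back. Its log2 ratios were 1.27 ± 0.44 and 2.15 ± 0.33, so both foot libraries were above both back libraries. Efna2 stood at 2.45 and 3.86 FPKM in foot and at 5.21 and 3.90 in back. It was counted as lower in foot under the positive label only (-1.08 ± 0.43), and not as deposited (-0.85). Efna3 and Efna4 stayed below 4 FPKM in every library.

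Among the B-class ephrins, transmembrane ligands, Efnb1 and Efnb2 differed by less than 2-fold between the skins. Efnb1 stood at 9.19 and 9.29 FPKM in foot and at 9.99 and 6.80 in back. Efnb2 stood at 7.26 and 6.89 FPKM in foot and at 6.16 and 3.72 in back. Their log2 ratios of foot against back lay between -0.38 and 0.12 after rescaling, and between -0.11 and 0.74 as deposited. Efnb3 stood at 1.86 and 2.79 FPKM in foot and at 3.51 and 5.01 in back, with log2 ratios of -0.87 ± 0.37 and -1.24 ± 0.26. The latter was -0.67 as deposited, short of 2-fold.

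Of the Eph receptors, Epha7 and Ephb6 were counted as higher in foot. Epha7, a receptor for A-class ephrins, stood at 9.85 FPKM (7.64 to 12.2) and 6.02 (4.97 to 7.12) in foot. In the back it stood at 1.31 (1.04 to 1.63) and 0.627 (0.425 to 0.958). The log2 ratios were 2.02 ± 0.36 and 1.63 ± 0.34, and the groups did not overlap. Ephb6, a family member without kinase activity, stood at 5.16 FPKM (0.836 to 9.50) and 12.4 (8.19 to 16.4) in foot and at 1.31 (1.05 to 1.75) and 2.63 (1.57 to 3.67) in back. Its ratio was 1.20 ± 1.25 under the positive label, where the bounds overlapped, and 1.26 ± 0.65 under the negative label.

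Lower Eph genes split between the skins. Ephb1 stood at 1.26 and 2.85 FPKM in foot and at 0.178 and 0.0692 in back. Epha8 stood at 0.0909 and 0.134 FPKM in foot and at 1.47 and 1.61 in back. Neither reached 5 FPKM, and neither had overlapping bounds between the skins under either label. Epha3 was also higher in back, at 1.58 and 1.07 FPKM against 0.601 and 0.556. Ephb4, a receptor known from veins, stood at 6.91 FPKM (upper bound 10.4) and 7.45 (6.58 to 8.32) in foot and at 8.12 (7.49 to 8.72) and 7.49 (6.82 to 8.15) in back. Its ratio under the negative label was -0.66 ± 0.18 after rescaling and -0.01 as deposited. Ephb2 ranged from 2.46 to 4.71 FPKM.

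The Rgm genes and netrin 1 were higher in back. Rgma stood at 1.14 FPKM (0.194 to 3.90) and 1.67 (0.957 to 2.40) in foot and at 9.21 (8.45 to 9.98) and 7.72 (6.99 to 8.45) in back. Rgmb stood at 3.46 (2.40 to 4.52) and 5.87 (5.06 to 6.68) in the foot and at 17.3 (16.4 to 18.3) and 16.1 (15.1 to 17.2) in back. For both genes every foot value lay below every back value.

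Log2 ratios of foot against back were -2.47 ± 0.98 and -2.26 ± 0.38 for Rgma, and -2.30 ± 0.35 and -1.98 ± 0.19 for Rgmb, under the positive and negative labels. Ntn1, which encodes the secreted cue netrin 1, stood at 4.00 FPKM (2.96 to 5.07) and 4.07 (3.46 to 4.68) in foot and at 10.3 (9.68 to 10.9) and 8.14 (7.56 to 8.72) in back. The ratios were -1.43 ± 0.31 and -1.47 ± 0.19, and -1.17 and -0.85 as deposited. Ntn4, the next netrin, was listed at 0 in the foot positive library and stood at 0.101 FPKM in the foot negative and at 0.805 and 0.269 in back.

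Netrin receptors of the Unc5 group mediate repulsion. Unc5c stood at 3.75 and 1.33 FPKM in foot and at 0.309 and 0.0654 in back, and Unc5d at 2.14 and 1.75 FPKM in foot and at 0.216 and 0.355 in back. The bounds of both genes did not overlap between the skins under either label. Unc5b was nearer, at 2.70 and 2.28 FPKM in foot against 1.13 and 1.02 in back. Its rescaled ratios were 0.61 ± 0.27 and 0.25 ± 0.21, and under the negative label its bounds overlapped. Unc5a was on the back side, listed at 0 in both foot libraries and at 0.355 and 0.223 FPKM in back.

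Semaphorins divided by gene. Sema3f, a secreted cue that acts through neuropilin 2, stood at 3.05 FPKM (1.93 to 4.19) and 5.92 (5.09 to 6.75) in foot and at 9.02 (8.35 to 9.74) and 11.1 (10.2 to 12.1) in back. Its log2 ratios were -1.56 ± 0.42 and -1.46 ± 0.20, the latter -0.81 as deposited. Sema6d, a transmembrane semaphorin, stood at 1.79 (1.23 to 3.36) and 2.73 (2.27 to 3.58) in foot and at 6.68 (6.28 to 7.45) and 9.88 (8.94 to 10.8) in back. The ratios were -1.69 ± 0.48 and -2.14 ± 0.26, and both were past 2-fold as deposited as well.

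Sema3a, the best known secreted repellent of axons, leaned to the foot. It stood at 11.2 FPKM (9.56 to 17.6) and 7.13 (6.27 to 9.65) in foot and at 5.36 (4.88 to 6.05) and 2.06 (1.79 to 3.12) in back. The rescaled ratios of 0.68 ± 0.43 and 0.83 ± 0.40 were below 2-fold, and the latter was 1.41 as deposited. Sema5a, the highest semaphorin by its mean over the libraries, stood at 11.5 and 8.54 FPKM in foot and at 8.73 and 8.25 in back, with ratios of 0.09 ± 0.19 and -0.62 ± 0.15 that are both above 0 as deposited (0.36 and 0.04). Sema3d stood at 7.27 and 5.63 FPKM in foot and at 9.32 and 5.79 in back, with rescaled ratios of -0.59 ± 0.24 and -0.66 ± 0.17 and -0.32 and -0.03 as deposited. Sema6a ranged from 2.61 to 4.82 FPKM.

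Plexins, the signalling receptors for semaphorins, were led by Plxnb2 in both skins. It stood at 17.2 FPKM (11.9 to 21.8) and 19.5 (15.0 to 21.2) in foot and at 13.0 (12.6 to 13.9) and 11.8 (11.3 to 12.8) in back, with rescaled ratios of 0.09 ± 0.41 and -0.03 ± 0.25. Plxna4, a receptor for Sema3a and Sema6a, had the widest rescaled log2 contrast among receptors below 5 FPKM, at -2.55 ± 0.13 and -1.85 ± 0.11. It stood at 0.0558 FPKM (0 to 0.149) and 0.0630 (0.0140 to 0.113) in foot and at 4.60 (4.27 to 4.93) and 2.17 (1.98 to 2.37) in back. Neither skin's bounds overlapped the other's.

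The remaining plexins and neuropilin 2 were low. Plxna2 stood at 1.57 and 0.955 FPKM in foot and at 0.353 and 0.396 in back, with bounds apart under the positive label. Plxna1 stood at 2.22 and 2.43 FPKM in foot and at 2.21 and 4.01 in back. Nrp2 stood at 0.735 and 1.67 FPKM in foot and at 2.49 and 1.67 in back. Plxnd1 ranged from 0.581 to 2.09 FPKM.

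Robo2 and Slit3 also differed between the skins after rescaling. Robo2 stood at 18.1 and 22.0 FPKM in foot, as given above, and at 7.08 (6.53 to 7.63) and 3.94 (3.62 to 4.50) in back. The log2 ratios were 0.97 ± 0.26 and 1.56 ± 0.16, so the positive label fell just short of 2-fold, and it passed as deposited (1.24). Its ligand Slit3 stood at 14.2 FPKM (10.2 to 18.4) and 16.1 (13.8 to 18.4) in foot. With ratios of -1.02 ± 0.41 and -0.82 ± 0.23 it was counted as lower in foot under the positive label only, and not as deposited (-0.73). Under the negative label the Slit3 ratio was only -0.12 as deposited, and its deposited bounds overlapped between the skins.

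Slit2 stood at 6.96 FPKM (6.18 to 13.3) and 4.13 (3.59 to 7.08) in foot and at 3.18 (3.02 to 5.44) and 3.22 (2.95 to 4.82) in back. The bounds of Slit2 overlapped between the skins after rescaling. Robo1 stood at 3.96 FPKM (3.18 to 4.75) and 4.72 (4.15 to 5.28) in foot and at 4.65 (4.15 to 5.21) and 5.91 (5.25 to 6.56) in back. Its rescaled ratios were -0.43 ± 0.27 and -0.89 ± 0.20, and as deposited its bounds overlapped under both labels.

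Markers of other cell types moved with the site as well. The 7 neuron markers summed to 0.381 and 7.61 FPKM in foot and to 50.2 and 17.4 in the back. Nefl, at 6.11 FPKM, made up most of the foot negative sum. Most of the back sum was Stmn2, at 47.4 and 15.8 FPKM, while Elavl3 was listed at 0 in the back positive library and Snap25 stood at 0.228 and 0.208 in the back. The 5 measured Schwann cell and glial markers summed to less than 1 FPKM in every library. Pericyte and smooth muscle markers went both ways, with Acta2 at 1.67 and 1.98 FPKM in foot and at 21.9 and 13.7 in back, and Rgs5 at 7.53 and 4.74 in foot and at 0.283 and 0.199 in back. The part of these cells in the site differences was not tested.

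Ratios of 2 genes inside a library do not depend on the factors. Efna5 was 26.8 times Efna1 in the back positive and 22.4 times in the back negative library, but 2.23 times in the foot positive and 0.705 times in the foot negative. Robo2 was 4.57 and 4.67 times Robo1 in foot, and 1.52 and 0.668 times in the back positive and negative libraries. Sema3a was 3.68 and 1.20 times Sema3f in foot and 0.595 and 0.185 times in back. For these 3 pairs both foot ratios lay on the same side of both back ratios. The same held for Slit3 over Slit2, Epha7 over Epha4 and Rgmb over Rgma, given below. Between the skins the bounds overlapped for Slit3 over Slit2 and for Rgmb over Rgma. All are among 8 pairs that were chosen with the values of their genes known, so the separation is a description. Slit3 over Slit2 was 2.05 and 3.89 in foot and 7.64 and 5.45 in back, and Epha7 over Epha4 was 7.18 and 1.62 in foot and 0.502 and 0.463 in back. In another 2 pairs the skins interleaved. Sema3c was 0.898 and 1.48 times Sema3d in foot and 1.14 and 0.378 times in back, and Ephb3 was 1.23 and 0.576 times Ephb4 in foot and 1.03 and 0.711 times in back. Rgmb exceeded Rgma in each library, 3.03 and 3.52 times in foot and 1.88 and 2.09 times in back, with wide bounds in the foot positive library (0.614 to 23.3).

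**Figure D3:**
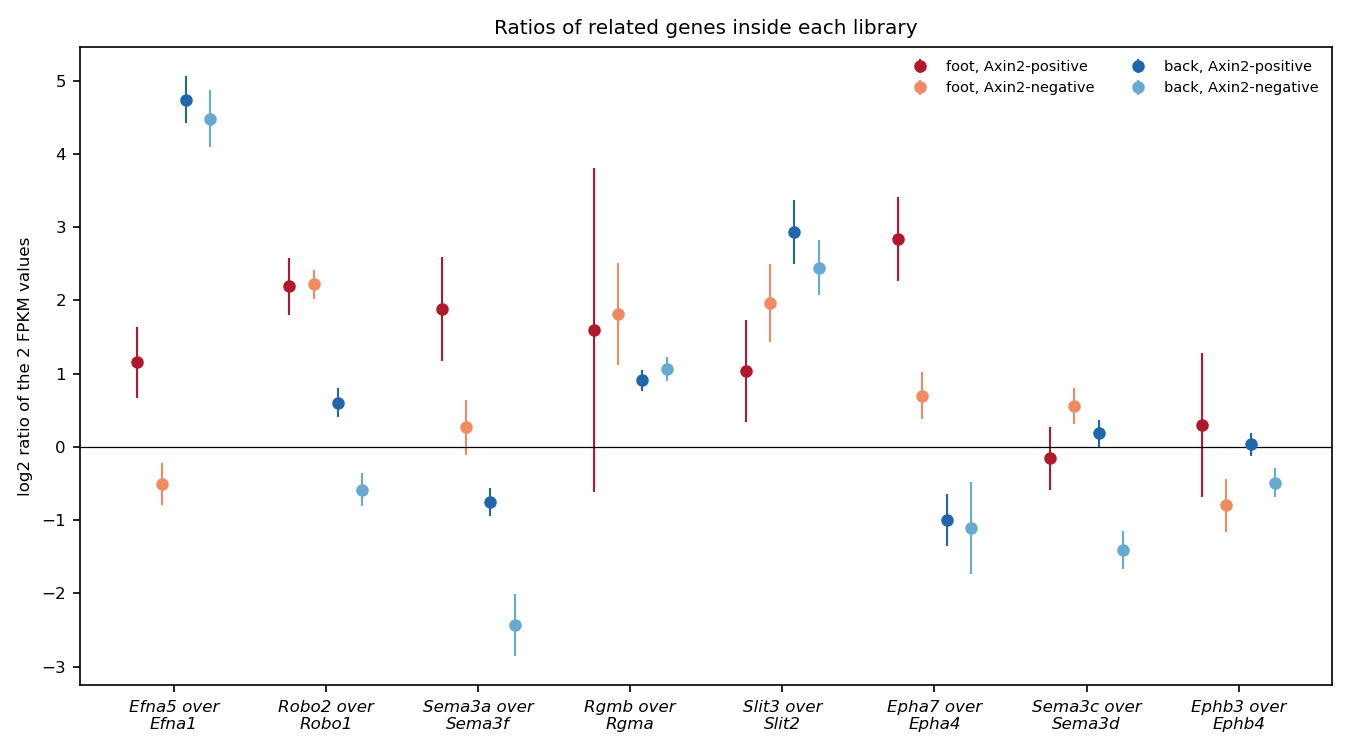
Log2 ratio of 2 related genes inside each library for 8 pairs, from FPKM as deposited, with bars that combine the bounds of both genes and a line at equal levels. Efna5 over Efna1 is far higher in back, Robo2 over Robo1 and Sema3a over Sema3f are higher in foot, and Sema3c over Sema3d and Ephb3 over Ephb4 do not separate the skins.

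Some members are neighbours in the genome. On mm9 chromosome 3 the A-class ephrin genes Efna1 (chr3:89075655-89085064), Efna3 (chr3:89117821-89126887) and Efna4 (chr3:89137312-89141950) lie 32.8 kb and 10.4 kb apart. Under the negative label their ratios of foot against back were 2.15 ± 0.33, 0.84 ± 0.54 and -1.03 ± 0.39 in that order, the last -0.55 as deposited. Under the positive label they were 1.27 ± 0.44, -0.05 ± 0.84 and -0.11 ± 0.53, with overlapping bounds for Efna3 and Efna4. Robo1 and Robo2 lie 846 kb apart on chromosome 16, and their ratios were -0.43 ± 0.27 and 0.97 ± 0.26 under the positive label and -0.89 ± 0.20 and 1.56 ± 0.16 under the negative. Ephb2 and Epha8 lie 93.4 kb apart on chromosome 4, and both were on the back side, with ratios of -0.95 ± 0.47 and -1.29 ± 0.19 under the positive label and -0.62 ± 0.28 and -1.47 ± 0.17 under the negative.

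The sort comparisons ask which guidance genes go with the Axin2 reporter. In the foot 18 members could be counted, of which 1 was higher in the positive library and 0 lower, beside 9.74% and 9.08% of 7741 genes. That gene was Ephb3, a receptor for B-class ephrins, at 8.49 FPKM (5.15 to 11.8) against 4.29 (3.35 to 5.23), and at 8.33 (7.70 to 8.98) and 5.33 (4.78 to 5.89) in back. Its foot log2 ratio was 1.03 ± 0.58, and it was 0.84 as deposited. With FPKM as deposited, where 7.14% and 13.9% of all genes were higher and lower, 0 members were higher and 2 lower, Efna1 (-1.08) and Ephb6 (-1.12), whose rescaled ratios were -0.83 ± 0.43 and -0.87 ± 1.31.

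In the back 20 members could be counted, and 1 was higher in the positive library and 0 lower, beside 3.59% and 2.7% of 6594 genes. That gene was Sema3c, a secreted semaphorin, at 10.6 FPKM (9.89 to 11.3) in the positive and 2.19 (1.84 to 2.53) in the negative library. The log2 ratio was 1.76 ± 0.19, and the bounds did not overlap. In foot Sema3c stood at 6.53 FPKM (4.92 to 8.13) and 8.32 (7.23 to 9.40), a ratio of -0.08 ± 0.35. Sema3a came next among the counted genes, at 0.95 ± 0.33, and passed 2-fold as deposited (1.06), where 5.05% and 2.03% of all genes were higher and lower. Mast cell markers summed to 2.17 and 265 FPKM in foot and to 24.6 and 83.9 in the back. The pericyte markers Kcnj8 and Abcc9 were higher in both positive libraries, by 1.32 ± 0.46 and 1.67 ± 0.35 in foot and by 1.41 ± 0.24 and 0.88 ± 0.21 in back. The other pericyte and smooth muscle markers went both ways. With foot first, ratios were 0.77 ± 0.30 and 0.07 ± 0.23 for Rgs5, and 0.01 ± 0.57 and 0.47 ± 0.17 for Acta2. Notch3 had -0.49 ± 0.24 and 0.12 ± 0.15, and Cspg4 had -0.35 ± 0.20 and -0.15 ± 0.14. Myh11 had -0.10 ± 0.11 and 0.05 ± 0.05. In the back sort the neuron marker Stmn2 had a ratio of 1.35 ± 0.16 and the leukocyte marker Fcer1g one of -2.29 ± 0.51. The part of these cells in the sort ratios was not tested.

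Smaller differences were read from bounds that did not overlap after rescaling, among members with at least 1 FPKM in the pair. In the foot 13 of 39 such members were apart, 9 higher and 4 lower in the positive library, where 30.9% of all genes were apart. In the back 19 of 39 were apart, 13 higher and 6 lower, where 33.2% of all genes were. With FPKM as deposited the foot gave 3 higher and 6 lower and the back 18 higher and 5 lower, beside 34.2% and 38.1% of all genes apart. Foot against back, 30 of 43 were apart under the positive label and 34 of 41 under the negative, beside 46.4% and 53.4% of all genes. As deposited both came to 27, beside 47.8% and 62.1% of all genes.

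In both sorts 6 members were apart after rescaling, which is 46.2% of the foot list and 31.6% of the back list. Of the 35 members that could be read in both sorts these are 17.1%, near the 13.1% of all 10355 such genes. Of the 6, 5 went the same way in both skins, beside 765 of the 1357 genes apart in both among all genes. Sema3a, Sema3d, Efna5 and Ephb3 were higher in both positive libraries, with foot ratios of 0.80 ± 0.48, 0.53 ± 0.23, 0.68 ± 0.27 and 1.03 ± 0.58. Their back ratios were 0.95 ± 0.33, 0.45 ± 0.18, 0.31 ± 0.09 and 0.41 ± 0.16 in the same order. Sema3f was lower in both, with ratios of -0.54 ± 0.44 in foot and -0.45 ± 0.16 in back. Epha4, the remaining gene, went opposite ways, at -0.76 ± 0.29 in foot and 0.52 ± 0.18 in back. As deposited the other 5 kept their signs, while in the foot only Efna5 and Sema3f kept bounds that do not overlap.

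Other members were apart in the back sort and not in the foot sort, after rescaling and as deposited. Plxna3, a plexin that serves Sema3f, stood at 3.61 FPKM (2.86 to 4.39) in the back positive and 0.820 (0.664 to 1.28) in the back negative library. Plxna4 at 4.60 against 2.17 FPKM and Robo2 at 7.08 against 3.94 were higher in the back positive library, with ratios of 0.71 ± 0.13 and 0.57 ± 0.16. Efnb1, Efnb2 and Slit3 were higher there by 0.34 ± 0.17, 0.46 ± 0.17 and 0.27 ± 0.17. Plxna1, Sema6d, Efnb3 and Robo1 were lower there, with ratios of -0.81 ± 0.15, -0.68 ± 0.17, -0.58 ± 0.21 and -0.46 ± 0.20. In the foot the ratios of Plxna1, Plxna4, Robo1 and Robo2 lay between -0.02 and 0.08, with bounds that overlapped. Plxna4 stood at only 0.0558 and 0.0630 FPKM there, where the added 1 keeps any ratio small, so its foot ratio cannot show a sort difference.

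After rescaling, the cue Slit2 and the receptors Unc5c and Epha7 were apart in the foot sort and not in the back sort, and higher in the foot positive library. Their ratios were 0.82 ± 0.63, 1.14 ± 0.66 and 0.84 ± 0.37. Sema5a (0.62 ± 0.21) and Efna4 (0.89 ± 0.59) were higher as well, and Efna1 and Ephb1 (-0.56 ± 0.36) lower. As deposited, the foot bounds of Slit2, Unc5c and Efna4 overlapped, and Epha7 was apart and higher in the back positive library too. Whether a gene apart in 1 skin differs from its ratio in the other was not tested.

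**Figure D4:**
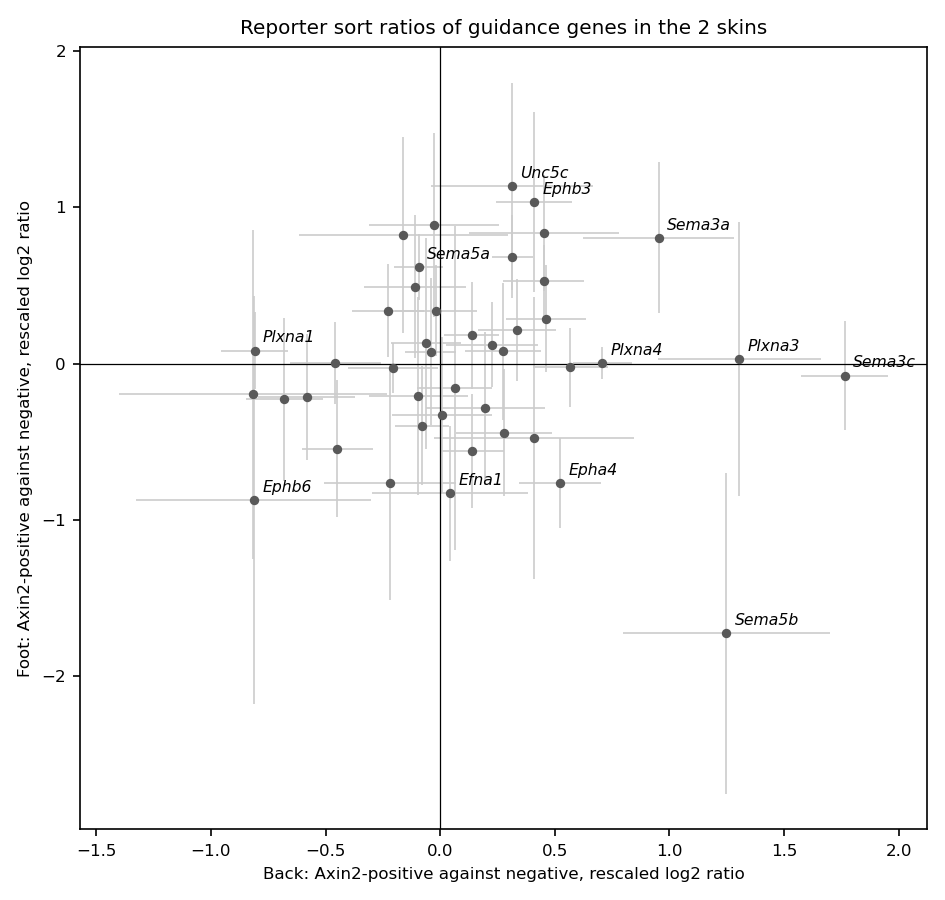
Rescaled log2 ratio of the Axin2-positive against the Axin2-negative library, back on the horizontal and foot on the vertical axis, for 43 guidance genes with bars for the combined bounds. Sema3c and Plxna3 lie to the right near the horizontal line, Sema3a lies above 0 on both axes, and Sema5b and Epha4 lie at the lower right.

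Partners and effectors of the guidance receptors were taken from a list of 60 other genes. Of 20 partner genes 17 could be measured. Foot against back, 1 was higher and 4 lower of 7 counted under the positive label, and 1 was higher and 2 lower of 6 under the negative. In the foot sort 1 of 5 was higher and 1 lower, and in the back sort 1 of 6 was higher. The shares of all genes higher and lower, given above, were 13.6% and 14% for the site under the positive label, 12.7% and 12.1% under the negative, 9.74% and 9.08% in the foot sort and 3.59% and 2.7% in the back sort. Flrt3, a membrane protein that binds Unc5 receptors, stood at 2.99 and 2.94 FPKM in foot and at 22.0 and 15.1 in the back. Its log2 ratios were -2.79 ± 0.46 and -2.64 ± 0.29. Neo1, the neogenin receptor for netrins and Rgm proteins, was on the foot side at 11.6 and 19.3 FPKM against 5.66 and 4.83, with ratios of 0.65 ± 0.17 and 1.13 ± 0.13.

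All 40 effector genes were measured. In the back sort 0 of 14 counted were higher or lower, and in the foot sort 6 of 22 were higher and 3 lower. Foot against back, 6 of 21 were higher and 3 lower under the positive label, and 2 of 18 higher and 3 lower under the negative. The same shares of all genes apply, and 0 of 14 in the back sort is near them. Srgap1, which binds Robo receptors, had a ratio of 1.83 ± 0.56 in the foot sort. Dpysl3, a member of the collapsin response mediator family, went the other way in that sort, at 12.3 against 42.3 FPKM, a ratio of -1.44 ± 0.34. Chn1, a Rac regulator downstream of EphA4, was higher in foot than in back by 2.69 ± 0.82 and 1.37 ± 0.38 under the positive and negative labels.

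A lower minimum of 1 FPKM for the pair let the low members be counted as well. In the foot sort Unc5c and Ephb3 were then higher and Sema5b lower, 2 and 1 of 39, beside 9.12% and 7.8% of all genes. In the back sort Plxna3, Sema3c and Sema5b were higher and 0 lower of 39, beside 3.1% and 2.45%. Foot against back, 5 were higher and 13 lower of 43 under the positive label, beside 11.8% and 13.4%, and 5 higher and 11 lower of 41 under the negative label, beside 10.4% and 12%. The receptors Epha8, Nrp2, Plxna3 and Plxna4 were among those lower in foot under the positive label, and Epha8, Plxna1 and Plxna4 under the negative. With a pseudocount of 0.1 and the minimum of 5 FPKM, 4 were higher and 8 lower in foot under the positive label and 6 higher and 9 lower under the negative. At this pseudocount the shares of all genes higher and lower were 11.6% and 10.9% in the foot sort and 4.52% and 3.11% in the back sort. In foot against back they were 15.5% and 15.8% under the positive label and 15% and 13.4% under the negative label.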

How the data were processed

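Messenger RNA of sorted dermal cells was sequenced as 1 library per group, per the labels. The authors aligned reads to mm9 with TopHat and made FPKM values with Cufflinks, per the submitters' processing notes. Their versions, settings and annotation: not given in the sources used here. FPKM values, as deposited, have a lower and an upper bound of unstated confidence level and a status, per the file headers. Read counts were not used, so depth per library is unknown beyond the width of the bounds.

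Rows of the same symbol were summed, and 455 of the 32866 units found in all 4 tables were left out because their status was not always OK. Median-ratio factors over 4834 genes of at least 5 FPKM in all libraries were 1.10, 1.32, 0.893 and 0.786 (foot positive, foot negative, back positive, back negative). Ratios used a pseudocount of 1. The added 1 understates changes of low genes. No test was run, since each group holds 1 library. The calculation was tested on simulated data. Values in every library were given for members at least 2-fold apart with 5 FPKM, and the highest 2 of each family; others are given in ranges or where bounds did not overlap. The members and lists were chosen with earlier results of these data known. Alternatives were FPKM as deposited, a pseudocount of 0.1, a minimum of 1 FPKM, bounds that do not overlap, and keeping genes listed at 0. Python 3.11.15, numpy 2.4.6 and pandas 2.3.3 were used.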

Additional observations from a re-analysis of the deposited data

Results flagged for a closer look

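Sema3c, Epha4 and Sema5b went opposite ways in foot against back under the 2 labels, with bounds that did not overlap in either pair after rescaling. Sema3c was lower in foot under the positive label (-0.89 ± 0.32) and higher under the negative (0.95 ± 0.23), a difference of -1.84. Epha4, a receptor for both ephrin classes, stood at 1.37 and 3.71 FPKM in the foot positive and negative libraries and at 2.60 and 1.35 in the back. Its ratios were -0.80 ± 0.27 and 0.49 ± 0.20, a difference of -1.29. Sema5b stood at 0.346 FPKM (0.157 to 3.49) and 4.41 (2.91 to 6.28) in foot and at 3.93 (3.22 to 4.69) in the back positive library, with bounds of 0.581 to 1.57 in the back negative. Its ratios were -2.04 ± 0.96 and 0.94 ± 0.58, a difference of -2.97. The same difference, read as the foot minus the back sort ratio, was -1.29 for Epha4, the only member whose sort ratios were opposite with bounds apart in both skins. All 3 genes kept both signs as deposited, but the bounds of Sema5b under the positive label then overlapped. With 1 library per group the differences were not tested. Only the guidance genes were searched for opposite site ratios. The share of all genes that would be flagged is unknown, so whether 3 members is unusual cannot be said. Bounds were apart for 46.4% and 53.4% of all genes in foot against back under the positive and negative labels.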

How the results depend on the processing

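No paired analysis was run. Each group holds 1 library, so leaving one out would empty its group. A fit of skin and label over all 4 libraries, which would leave 1 residual degree of freedom, was not run. Of 40 counts of members under an alternative, 29 stayed within 1.5 times the reported count. With FPKM as deposited the foot sort had 0 higher and 2 lower, the back sort 2 higher, and foot against back under the negative label 4 lower. A pseudocount of 0.1 gave 2 higher in the back sort. A minimum of 1 FPKM gave 2 higher and 1 lower in the foot sort, 3 higher in the back sort, 5 higher and 13 lower in foot against back under the positive label, and 11 lower under the negative label. The added calls follow from the lower minimum, which lets more members be counted. The cause was not tested for the others, beyond the factor or pseudocount changed. Differences of low members are limited by the wide bounds of the foot positive library.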
